A study of Mus musculus with 18 samples.

Results

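The response of the mouse larynx that cigarette smoke and e-cigarette aerosol had in common was measured by setting 12 exposed libraries against 6 libraries of mice kept in room air. These are 18 of the 18 libraries of the study, and none was left out. In the contrast each product counted equally, so that the exposed value is the mean of the smoke value and the e-cigarette value. A gene was counted as moved the same way by each product when it was called in smoke versus air and in e-cigarette versus air with the same sign. "Called" refers to an adjusted p below 0.05 by edgeR over 17537 tested genes, and "rose" and "fell" are used only of called genes. By this rule 182 genes were moved the same way, 129 higher and 53 lower.

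All mice were males of the inbred strain C57BL6/J, 8 to 9 weeks old, with no transgene or other treatment named. They spent 1 hour a day, on 5 days a week for 4 weeks, in a whole-body inhalation chamber. The air group (6 libraries) received room air, the smoke group (6 libraries) the smoke of 3R4F research cigarettes, and the e-cigarette group (6 libraries) the aerosol of JUUL Virginia tobacco e-cigarettes. Whole larynges were used for RNA, so the libraries can hold epithelium, glands, cartilage, muscle and attached neck tissue. Whether a library holds the RNA of 1 animal is not stated, and the p-values measure the spread between these samples only.

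The larynx carries inhaled air past the vocal folds and is lined by squamous and ciliated epithelium with mucus-secreting glands beneath. Combustion products of tobacco bind the aryl hydrocarbon receptor (AhR), a ligand-activated transcription factor that induces cytochrome P450 genes together with its own repressor, Ahrr. Cells under acute stress switch on other programmes within minutes: heat shock factor induces chaperones such as Hspa1a, and growth factor, calcium or cAMP signals induce immediate early genes such as Fos and Dusp2.

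Promoters of 3 members are shown because each holds a motif commonly used to describe one of these programmes. Each is the 250 bases before the RefSeq transcription start, 5′ to 3′ on the gene's strand, in GRCm38.p6. Hspa1a, an inducible HSP70 chaperone that fell, lies at chr17:34972157-34972406 (minus strand), and capitals mark GAANNTTC, a pair of inverted heat shock element units. Areg, the EGF receptor ligand amphiregulin, which fell, lies at chr5:91139349-91139598 (plus strand), and capitals mark TGACGTCA, the cAMP response element. Ahrr, which rose, lies at chr13:74292332-74292581 (minus strand), and capitals mark GCGTG, the core of the AhR response element.
Hspa1a: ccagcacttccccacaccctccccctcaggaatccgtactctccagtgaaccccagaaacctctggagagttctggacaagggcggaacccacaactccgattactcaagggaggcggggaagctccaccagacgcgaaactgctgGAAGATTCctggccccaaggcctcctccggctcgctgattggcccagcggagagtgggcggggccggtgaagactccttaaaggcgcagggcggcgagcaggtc
Areg: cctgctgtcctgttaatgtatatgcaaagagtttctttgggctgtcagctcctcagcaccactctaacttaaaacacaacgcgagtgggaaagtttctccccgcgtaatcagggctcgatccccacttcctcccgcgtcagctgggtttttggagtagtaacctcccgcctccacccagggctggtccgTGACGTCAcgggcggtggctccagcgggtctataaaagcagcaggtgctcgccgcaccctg
Ahrr: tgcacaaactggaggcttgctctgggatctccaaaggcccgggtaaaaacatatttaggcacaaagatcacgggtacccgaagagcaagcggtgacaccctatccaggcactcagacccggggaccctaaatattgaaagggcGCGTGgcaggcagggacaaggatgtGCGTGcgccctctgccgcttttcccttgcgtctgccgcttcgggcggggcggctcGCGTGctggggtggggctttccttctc

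The match in Hspa1a began 104 bases before the start, that in Areg 61 bases before it, and those in Ahrr 107, 82 and 27 bases before it. On either strand, GAANNTTC stood in 7 of the 42 lower genes with a promoter sequence (16.7%: Dnaja1, Hspa1a, Hspa1b, Jun, Morf4l2, Slc20a1 and Vmp1), in 8 of 97 higher genes (8.25%), in 6.11% of the tested genes with a promoter and in 7.73% of all 27025 genes searched. A gene counted if any of its promoters held the motif, and the promoters searched did not cover every chromosome. TGACGTCA stood in Areg and Tra2a among the lower genes (4.76%), in 1.03% of the higher genes, 2.8% of the tested genes and 1.77% of all genes searched. GCGTG, a short motif, stood in 73.8% of the lower genes, 41.2% of the higher genes, 46.2% of the tested genes and 30.9% of all genes searched. These are matches of letters, with no test and no claim that a factor binds there.

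Depth was 15.6 to 22.5 M counts per library. The labelled tissue was checked with Krt5, Krt13, Foxj1, Bpifa1, Col2a1 and Myh13, markers of basal, squamous, ciliated and secretory epithelium, cartilage and laryngeal muscle. Each was detected in 18 of 18 libraries, although Myh13 was at 9.39 and 15.9 CPM (counts scaled to 1 M per library) in air 5 and 6 against 265 to 594 CPM elsewhere. Attached tissue differed between libraries. The summed CPM of the Glandular acini list was between 3756 and 60840 for air, between 45960 and 63480 for smoke and between 46680 and 124900 for e-cigarette. The gland lipase gene Lipf was at 3247, 623 and 1168 CPM in air 4, 5 and 6 against 13700 to 21290 CPM in air 1, 2 and 3. Thyroid follicle genes summed to 57940 to 99560 CPM in air and 58610 to 96120 in smoke, but to 153 to 29490 in e-cigarette. In whole tissue, fewer cells of a type and less RNA per cell cannot be told apart.

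In the contrast of both products with air, 3033 of 17537 genes were called (17.3%), 1532 higher (8.74%) and 1501 lower (8.56%). Counts of calls in a gene list are to be read beside these shares. By at least 2-fold, 196 rose (1.12%) and 301 fell (1.72%). Smoke versus air gave 279 calls (1.59%) and e-cigarette versus air 4406 (25.1%). With the exposed libraries fitted as 1 group, 1621 genes were called. Of the 3033 genes, 2551 were called by e-cigarette only, 61 by smoke only and 239 by neither product alone. The 182 genes called the same way by each product were 1.04% of those tested (0.736% higher, 0.302% lower), and 6% of the 3033. All 182 were called in the contrast of both products with air. Both product comparisons use the same 6 air libraries, so an unusual air library moves both in the same direction.

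The median log2 fold change of the 129 higher genes was 0.74 with both products, 0.67 in smoke and 0.79 in e-cigarette, beside -0.0022 over all tested genes. For the 53 lower genes the medians were -0.62, -0.61 and -0.59. The change was larger in smoke for 41 of the 129 higher genes and for 32 of the 53 lower genes. In 81 of the 182, all 12 exposed libraries lay outside the range of the 6 air libraries (60 above, 21 below). Over all tested genes this held for 169 (0.964%; 111 above, 0.633%, and 58 below, 0.331%). The 182 were chosen by their calls against these same air libraries. Their distance from all tested genes, in medians and in overlap, follows in part from that choice.

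The number of common genes rested on the small smoke response and on single libraries. Leaving out air 4, 5 or 6 gave 91, 35 or 76 genes, leaving out smoke 3, 4, 5 or 6 gave 79, 59, 46 or 51, and leaving out air 2 gave 356. DESeq2 gave 540 genes, 181 of the 182 among them, and voom with sample quality weights 667, 164 of the 182 among them. A replicate block gave 29 genes, each of them among the 182. Without air 4, 5 and 6 there were 382, with 60 of the 182 among them. With the gland and cartilage scores as covariates 538 were called, 41 of the 182 among them. When thyroid and muscle scores were added, 242 were called, 15 of the 182 among them. With the thyroid score alone 1 was called, also among the 182.

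Secreted proteins gave the 4 largest common increases among the genes named by the rule. Cst10, a cystatin (a secreted inhibitor of cysteine proteases), was at 0 to 0.633 CPM in air (median 0.0321), 1.51 to 16.1 CPM in smoke (median 7.97) and 0.594 to 2.76 CPM in e-cigarette (median 1.16). Only air 2 reached into the lowest e-cigarette value, and air 1, 5 and 6 had no count. The log2 fold change of both products against air was 4.41 (SE 0.77, adjusted p = 0.00121), from 15 counts in all air libraries, 799 in smoke and 160 in e-cigarette. It was 5.91 without air 2.

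Bpifb9a (ENSMUSG00000067998, chromosome 2, 154257854 to 154271245), of the family of secreted lipid-binding BPI fold proteins, was at 0.854 to 12.6 CPM in air (median 1.99), 43.1 to 158 CPM in smoke (median 112) and 14.7 to 69.2 CPM in e-cigarette (median 33.5). No exposed library overlapped the air libraries, of which air 3 was highest. The log2 fold change was 4.09 (SE 0.62, adjusted p = 7.19e-04), and 5.05 without air 3. Reads of Bpifb9a can be shared with its near-identical neighbour Bpifb9b, so its count is uncertain.

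Pip, the prolactin-inducible protein of saliva and other glandular fluids, was at 0 to 2.50 CPM in air (median 1.12), 7.82 to 13.5 CPM in smoke (median 10.2) and 7.86 to 41.2 CPM in e-cigarette (median 9.95), with no overlap (3.50, SE 0.60, adjusted p = 0.00122). Smgc, the submandibular gland protein C gene, was at 0 to 1.54 CPM in air (median 0.753), 2.08 to 6.06 CPM in smoke (median 3.47) and 3.51 to 4.28 CPM in e-cigarette (median 4.01), again with no overlap (2.29, SE 0.43, adjusted p = 0.00164). Pip and Smgc were lowest in air 5 and 6, the air libraries with the least gland RNA. Of the 19 tested genes of the Glandular acini list, 6 rose, 0 fell and 13 were not called (median 1.47, 18 above 0). The other 3 that rose were the lactoperoxidase gene Lpo (2.08) and the secreted protein genes Dcpp1 (1.61) and Dcpp3 (1.51, not called without air 4 or 6). Without air 3, 10 rose. The list's median was 0.55 without air 4, 5 and 6, with 4 genes higher and 1 lower, and without air 1, 2 and 3 it was 3.22, with 18 higher. Without air 4, 5 and 6 Cst10 was at 3.73, Bpifb9a at 3.28, Pip at 2.84, and these 3 and Smgc were still called. With the gland and cartilage scores as covariates, the first of which contains Cst10, Pip and Smgc, Smgc was at 1.11 (adjusted p = 0.0769) and the other 3 were called at 1.55 to 3.36. When thyroid and muscle scores were added, Bpifb9a was called at 2.06, while Cst10 (3.19, adjusted p = 0.0995), Pip (1.35, adjusted p = 0.128) and Smgc (1.14, adjusted p = 0.13) were not.

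**Figure D1:**
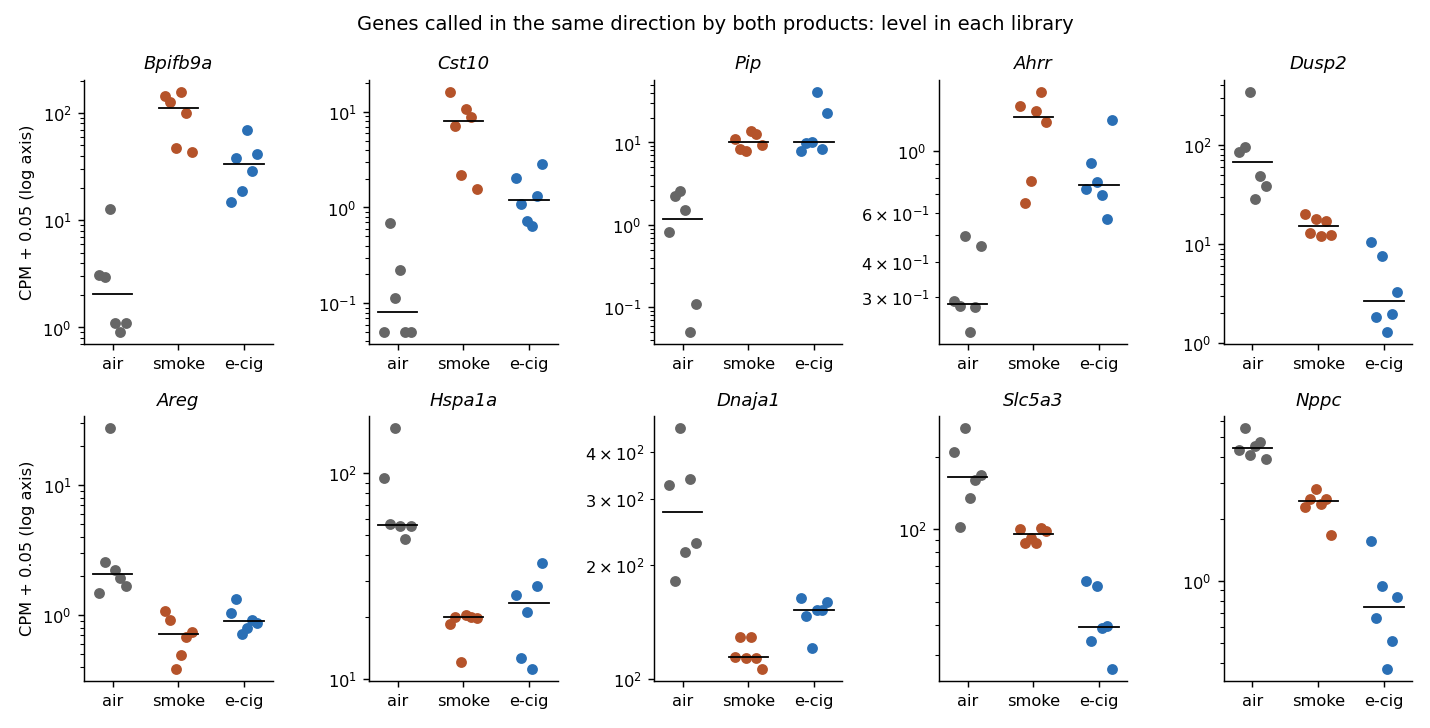
Expression of 10 genes in each of 18 libraries, as CPM plus 0.05 on a log axis, with 1 point per library and a line at each group's median. Bpifb9a, Pip and Ahrr were higher in 12 of 12 exposed libraries than in any air library, and Dusp2, Areg and Hspa1a lower. Among the air libraries, air 3 was at the top for Dusp2, Areg and Hspa1a.

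Among genes of the AhR response, the repressor rose with both products and the P450 with smoke. Ahrr (ENSMUSG00000021575, chromosome 13, 74211118 to 74292331) was at 0.175 to 0.449 CPM in air (median 0.235), 0.601 to 1.58 CPM in smoke (median 1.27) and 0.520 to 1.24 CPM in e-cigarette (median 0.704). Every exposed library was above every air library, at a level of 29 counts in all air libraries, 119 in smoke and 88 in e-cigarette. The log2 fold change was 1.70 (SE 0.30, adjusted p = 0.00102), 1.96 in smoke and 1.43 in e-cigarette, and the products did not differ by the test (adjusted p = 0.219).

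Cyp1a1, the P450 that is the classic AhR target, was at 0.301 to 1.22 CPM in air (median 0.672), 2.25 to 4.23 CPM in smoke (median 2.90) and 0.681 to 1.06 CPM in e-cigarette (median 0.766). The e-cigarette libraries lay within the air range and the smoke libraries above it. Its value with both products, 1.23 (SE 0.25, adjusted p = 0.00255), was therefore the mean of 2.17 in smoke and 0.29 in e-cigarette (adjusted p = 0.493), and the products differed (adjusted p = 1.07e-04). Of the 12 tested AhR genes 4 rose and 1 fell (median 0.41), and Ahrr alone was called by each product. The 4 became 2 without air 4 or 6, smoke 4 or 6, or e-cigarette 3, 4 or 5. The others that rose were Aldh3a1, an aldehyde dehydrogenase (0.87, not called in 15 of the 18 fits without 1 library), and the AhR partner Arnt (0.20, not called in 9), and the actin-severing protein gene Scin fell by 1.51. Neither Cyp1b1 (0.45, adjusted p = 0.0826) nor Tiparp (-0.23, adjusted p = 0.229) was called. With the thyroid, gland, cartilage and muscle scores as covariates Ahrr was at 1.54 (adjusted p = 0.0765) and Cyp1a1 at 0.78, neither of them called. Also higher with each product were the alcohol dehydrogenase gene Adh1 (0.57, SE 0.10) and the drug efflux pump gene Abcb1a (0.98, SE 0.16), which handle foreign compounds, each without overlap between exposed and air libraries. In the Xenobiotic metabolism list of 38 tested genes 4 rose and 5 fell (23.7% called, against 17.3% of all genes). Without air 2 or 3, 2 rose, and without air 4, 5 or 6 or smoke 1, 1 to 3 fell.

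Among antioxidant genes that NRF2 controls, the share called was near that of all genes. Of 28 tested genes of the NRF2 and glutathione list 1 rose and 3 fell (14.3%, against 17.3% of all genes). The gene of NRF2 itself, Nfe2l2, fell by 0.33 (SE 0.07, adjusted p = 0.00485) and was called lower by each product. Gclc, which makes the first intermediate of glutathione, fell by 0.37 (adjusted p = 0.0407) and was not called in 6 of the 18 fits without 1 library, with -0.21 without air 3. Without air 1 or air 3, 1 gene of the list fell. Nqo1 was at 0.30 (adjusted p = 0.21) and Hmox1 at -0.13 (adjusted p = 0.787).

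Other large common increases included a growth factor, a junction protein and membrane transporters. Hgf, the hepatocyte growth factor gene of stromal cells, was at 0.398 to 0.863 CPM in air (median 0.674), 0.889 to 2.96 CPM in smoke (median 1.38) and 1.38 to 2.75 CPM in e-cigarette (median 2.06), with no overlap (1.45, SE 0.27, adjusted p = 0.00133). Cldn11, a claudin that seals tight junctions, was at 0.128 to 0.643 CPM in air (median 0.232), 0.765 to 1.58 CPM in smoke (median 1.07) and 0.611 to 1.35 CPM in e-cigarette (median 0.781), with 1.67 (SE 0.31, adjusted p = 0.00145). Air 6 alone reached the e-cigarette range.

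Atp13a4, a P5-type transport ATPase, had the smallest SE among the 12 largest increases. It was at 1.98 to 3.22 CPM in air (median 2.44), 3.96 to 6.92 CPM in smoke (median 5.02) and 6.21 to 9.55 CPM in e-cigarette (median 7.44), a log2 fold change of 1.33 (SE 0.15, adjusted p = 1.04e-04). No exposed library overlapped air, and the e-cigarette value was above the smoke value (1.60 against 1.05, adjusted p of the difference 0.0213). The amino acid transporter Slc38a5 rose by 1.17 (SE 0.22), the adenylyl cyclase Adcy8 by 1.76 (SE 0.36), the matrix link protein Hapln3 by 1.73 (SE 0.28) and the secreted matrix protein Spon2 by 1.35 (SE 0.22). Slc38a5 and Adcy8 were lowest in air 5 and 6, and with the gland and cartilage scores as covariates they were at 0.42 and 0.47 and no longer called (adjusted p = 0.196 and 0.18), while Atp13a4 was at 1.60 and called.

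**Figure D2:**
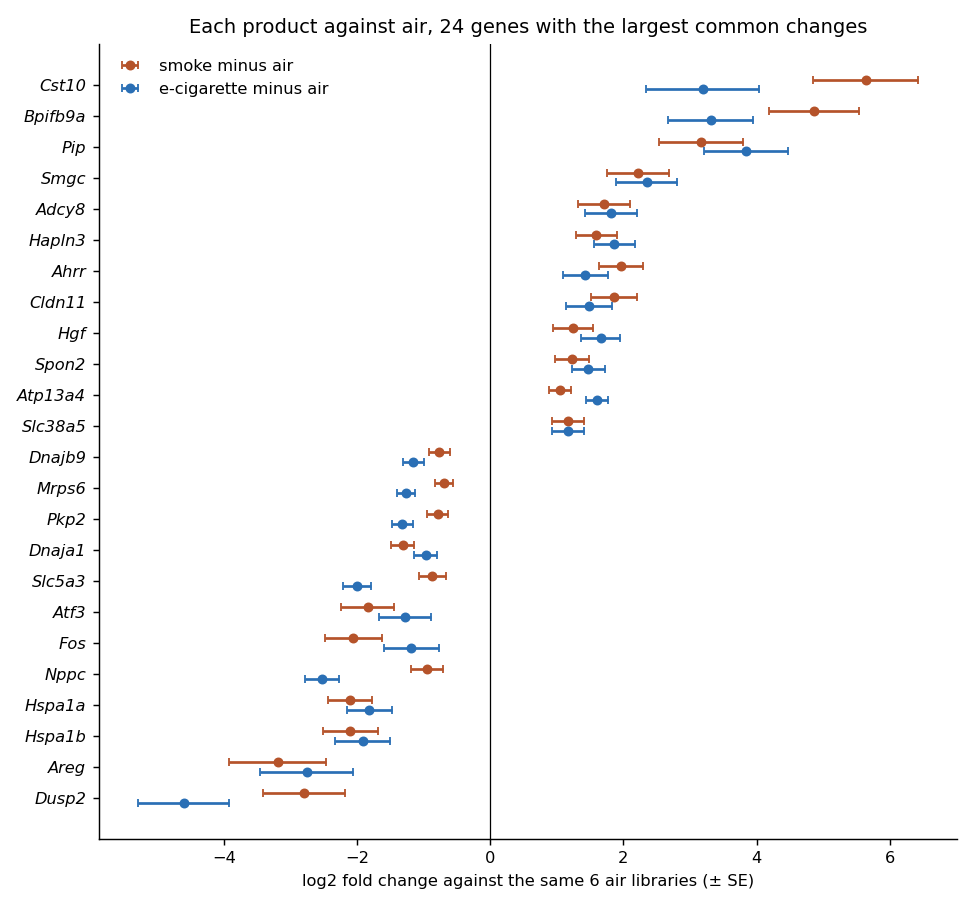
Log2 fold change against air, with its SE, in smoke and in e-cigarette for the 12 largest common increases and 12 largest common decreases. The rule chose genes with the same sign in both. Cst10 was farther from 0 in smoke (5.64 against 3.19), and Nppc was farther from 0 in e-cigarette.

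Immediate early genes fell in part, and none of their list rose. Dusp2 (ENSMUSG00000027368, chromosome 2, 127336159 to 127338376), a phosphatase that switches off MAP kinases, was at 28.5 to 344 CPM in air (median 67.1), 12.0 to 20.03 CPM in smoke (median 15.0) and 1.24 to 10.4 CPM in e-cigarette (median 2.59). No exposed library reached the lowest air library. The log2 fold change was -3.70 (SE 0.50, adjusted p = 3.74e-04), and -2.87 without air 3, the highest library.

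Fos, a subunit of the AP-1 transcription factor, was at 19.7 to 104 CPM in air (median 26.8), 7.19 to 17.0 CPM in smoke (median 8.51) and 8.77 to 31.0 CPM in e-cigarette (median 15.3). Smoke lay below air, and e-cigarette overlapped it (-1.62, SE 0.34, adjusted p = 0.00456). Without air 2, its highest library, Fos was at -1.07. Atf3, a stress-induced transcription factor, was at 6.84 to 58.1 CPM in air (median 14.4), 4.11 to 8.69 CPM in smoke (median 5.59) and 5.70 to 12.1 CPM in e-cigarette (median 8.31), with overlap in both (-1.56, SE 0.32, adjusted p = 0.00356). Without air 3 Atf3 was at -0.96. Jun, the partner of Fos, fell by 0.80 (SE 0.12, adjusted p = 3.53e-04).

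Of 29 tested immediate early genes 15 fell and 0 rose, and 29 of 29 values were below 0 (median -0.72, median -0.73 in smoke and -0.82 in e-cigarette). Dusp2, Fos, Atf3 and Jun were called by each product. Others that fell were Fosl1 (-2.31), Fosb (-1.90), Nr4a3 (-1.52), Junb (-0.95), Klf6 (-0.71) and Dusp1 (-0.72). Without air 3 the list's median was -0.34, with 12 lower genes of which 1 was called by each product, Fosl1 was at -0.17 (adjusted p = 0.592), Nr4a3 at -0.90 and Junb at -0.67. Fosl1, Junb and Dusp1 were not called without air 3, Junb and Dusp1 not without air 2, and Junb not without air 1. The summed CPM of this list lay between 1227 and 3438 for air, between 932 and 1212 for smoke and between 935 and 1190 for e-cigarette, so that 12 of 12 exposed libraries were below every air library. Air 3, 2 and 1 were highest, at 3438, 2291 and 1483, and air 4, 5 and 6 at 1227 to 1237. Without air 1, 2 and 3 the median was -0.10, with 3 genes lower and 1 higher, and Fos (-0.71, adjusted p = 0.111) and Atf3 (-0.57, adjusted p = 0.0712) were no longer called, while Dusp2 was at -2.25 (adjusted p = 0.0027). It was -1.11 without air 4, 5 and 6, with 26 genes lower. The air libraries with more immediate early RNA were those with more gland and cartilage RNA. With the gland and cartilage scores as covariates 26 of the 29 genes fell, and 18 were called lower by each product (median -1.25). When thyroid and muscle scores were added, 20 fell and 5 were called lower by each (median -1.21). With the thyroid score alone 2 fell and 0 were called by each (median -0.70). The cause of these changes was not tested.

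Areg was at 1.44 to 27.1 CPM in air (median 2.02), 0.338 to 1.02 CPM in smoke (median 0.663) and 0.671 to 1.28 CPM in e-cigarette (median 0.847). All exposed libraries were below all air libraries, and air 3, at 27.1 CPM, stood above the next air library at 2.53 CPM. The log2 fold change was -2.97 (SE 0.56, adjusted p = 0.00215) with air 3 and -1.33 (adjusted p = 8.98e-04) without it. With e-cigarette 1 and 3 as the only e-cigarette libraries it was at -3.04 (adjusted p = 0.0604) and with the thyroid score as a covariate at -3.33 (adjusted p = 0.0617), not called in either. Of 13 tested genes of the EGF family list 4 fell, Areg, the neuregulin gene Nrg1 (-1.17), the feedback inhibitor gene Errfi1 (-1.05) and the receptor gene Erbb4 (-0.66), and Egf rose by 0.71. Without air 3, 2 of the list fell, and Nrg1 was at -0.52 (adjusted p = 0.181) and Errfi1 at -0.38 (adjusted p = 0.0698). Egf was not called in 9 of the 18 fits without 1 library, nor Nrg1 without air 1. Areg was the 1 member called by each product.

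Several cytosolic chaperones fell with each product. Hspa1a (ENSMUSG00000091971, chromosome 17, 34969190 to 34972156) was at 48.0 to 165 CPM in air (median 55.9), 12.0 to 20.3 CPM in smoke (median 19.8) and 11.1 to 36.4 CPM in e-cigarette (median 23.4). No exposed library overlapped air (-1.96, SE 0.27, adjusted p = 3.47e-04). Its near-identical copy Hspa1b, with which it can share reads, was at 112 to 514 CPM in air (median 136), 36.4 to 70.9 CPM in smoke (median 50.6) and 18.6 to 84.4 CPM in e-cigarette (median 66.5), with -2.01 (SE 0.33, adjusted p = 0.00102).

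The J-domain gene Dnaja1 (ENSMUSG00000028410, chromosome 4, 40722150 to 40737149), a co-chaperone that hands clients to HSP70, was at 182 to 462 CPM in air (median 278), 106 to 129 CPM in smoke (median 114) and 120 to 164 CPM in e-cigarette (median 152). Exposed and air libraries did not overlap, and the log2 fold change was -1.14 (SE 0.14, adjusted p = 1.35e-04), -1.32 in smoke and -0.97 in e-cigarette. The cytosolic HSP90 gene Hsp90aa1 was at 346 to 902 CPM in air, 299 to 382 CPM in smoke and 413 to 532 CPM in e-cigarette, and both overlapped air (-0.79, SE 0.14, adjusted p = 9.89e-04). It fell more in smoke than in e-cigarette (-1.09 against -0.49, adjusted p of the difference 0.0166).

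Of 25 tested genes of the heat shock list 12 fell, 0 rose and 13 were not called, with 24 below 0 (median -0.34, -0.40 in smoke and -0.21 in e-cigarette). Called by each product were Hspa1a, Hspa1b, Dnaja1, Hsp90aa1, the co-chaperone Dnajb1 (-0.75) and the HSP110-type chaperone Hspa4l (-0.63). Hsph1 (-0.87) and the constitutive HSP70 gene Hspa8 (-0.50, not called without air 1 or 3) fell with both products together. The number of lower genes was 12 without air 1, 2 and 3, where 1 rose, and 15 without air 4, 5 and 6, with medians of -0.30 and -0.49. Summed CPM lay between 5488 and 9877 for air, between 4810 and 5255 for smoke and between 5938 and 6647 for e-cigarette. Air 1 and 3 were highest, and e-cigarette overlapped the air range.

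**Figure D3:**
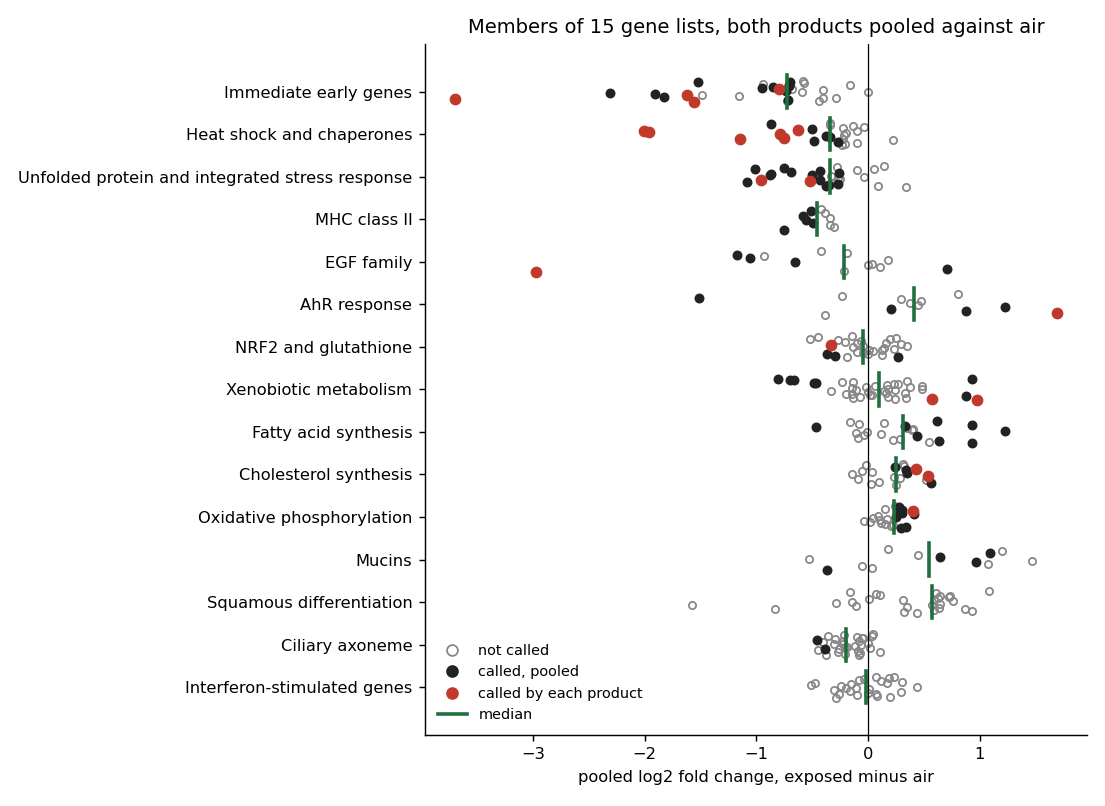
Log2 fold change of both products against air for the tested members of 15 gene lists, with 1 point per gene (open where not called, black where called, red where called the same way by each product) and a green bar at the list's median. Immediate early, heat shock and unfolded protein genes lie mostly below 0, at medians of -0.72, -0.34 and -0.34.

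Chaperones of the endoplasmic reticulum fell as well. Dnajb9, a co-chaperone of the HSP70 protein BiP, was at 108 to 216 CPM in air (median 168), 73.0 to 129 CPM in smoke (median 91.0) and 63.9 to 81.4 CPM in e-cigarette (median 76.0). E-cigarette lay below air and smoke overlapped it (-0.96, SE 0.13, adjusted p = 2.14e-04). On the list for unfolded protein and integrated stress responses, 15 of 26 tested genes fell and 0 rose (median -0.34, -0.23 in smoke and -0.42 in e-cigarette). Dnajb9 and Ddit3, the stress transcription factor CHOP (-0.52, SE 0.11), were called by each product. Hspa5, the gene of BiP, fell by 0.88 (SE 0.14, -0.62 in smoke and -1.13 in e-cigarette), and Creld2 by 1.08, Sdf2l1 by 1.02 and Manf by 0.87. Creld2 fell more in e-cigarette (-1.51 against -0.66, adjusted p of the difference 0.00531). Thyroid follicle genes were lower in the same libraries, at 153 to 29490 CPM in e-cigarette against at least 57940 CPM in air, so the fit was repeated. With e-cigarette 1 and 3 as the only e-cigarette libraries 8 of the 26 fell (median -0.37), and with the thyroid score as a covariate 4 fell, with none called by each product (median -0.36).

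Nppc, Slc5a3, Mrps6 and Pkp2 fell with each product and further in e-cigarette. Nppc, the gene of C-type natriuretic peptide, was at 3.86 to 5.46 CPM in air (median 4.39), 1.62 to 2.76 CPM in smoke (median 2.39) and 0.324 to 1.52 CPM in e-cigarette (median 0.697). The 3 groups did not overlap at all (-1.74, SE 0.20, adjusted p = 1.04e-04, -0.95 in smoke and -2.53 in e-cigarette). The difference between products was called (adjusted p = 3.96e-04).

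Slc5a3, the myo-inositol transporter gene that responds to osmotic stress, was at 102 to 261 CPM in air (median 164), 87.5 to 101 CPM in smoke (median 95.0) and 26.2 to 61.0 CPM in e-cigarette (median 39.1), with -1.44 (SE 0.17, adjusted p = 1.35e-04). Mrps6, of the small mitochondrial ribosomal subunit, was at 36.3 to 52.8 CPM in air (median 45.7), 19.9 to 34.0 CPM in smoke (median 28.7) and 15.9 to 22.5 CPM in e-cigarette (median 18.4), with -0.98 (SE 0.11, adjusted p = 1.04e-04). Slc5a3 (chromosome 16, 92058322 to 92087473) lies within Mrps6 (92058270 to 92112227), so reads of the pair may be shared and they are not independent. Pkp2, a desmosomal plakophilin, was at 27.7 to 66.8 CPM in air (median 36.3), 18.5 to 26.5 CPM in smoke (median 23.8) and 13.5 to 17.6 CPM in e-cigarette (median 16.7), with -1.05 (SE 0.13, adjusted p = 1.35e-04). In these 3 genes too no exposed library reached the air range, and e-cigarette was lower than smoke (adjusted p of the difference 0.00123 to 0.0274).

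Lipid synthesis genes rose in part. Of 22 tested fatty acid synthesis genes 7 rose and 1 fell (median 0.31), with none called by each product. The 7 became 3 without air 5 and 4 without air 6. Fasn, the fatty acid synthase gene, was at 1.23 (2.03 in smoke, 0.43 in e-cigarette), Scd1, a desaturase gene, at 0.93 (1.58 and 0.28) and Acaca at 0.93 (1.39 and 0.47). The products differed in Scd1 by 1.29 and in Acaca by 0.92, each a called difference. Fasn was not called without air 4, 5 or 6. The score of the White adipocytes list was 6.33 to 6.71 in smoke, 5.99 to 6.25 in air and 5.71 to 6.35 in e-cigarette, its median was 0.37 in smoke and -0.14 in e-cigarette, and 3 of its 16 tested genes rose (1 without air 2, air 5 or e-cigarette 4). Its part in the lipid values was not tested. Of 19 tested cholesterol synthesis genes 6 rose and 0 fell (median 0.25, 0.05 in smoke and 0.42 in e-cigarette). The 6 became 3 without air 1, 3, 4 or 6, without smoke 4, 5 or 6, or without e-cigarette 1, 3, 5 or 6, and 0 with the thyroid score as a covariate, where the median was 0.24. Nsdhl (0.43, SE 0.09) and the sterol sensor gene Insig1 (0.54, SE 0.10) were called by each product. Insig1 was at 57.8 to 75.7 CPM in air, 79.4 to 104 CPM in smoke and 74.1 to 127 CPM in e-cigarette. Fatty acid oxidation and other PPAR targets rose in 9 of 27 cases, among them Hadha (0.40) and Acadvl (0.39), and 1 fell. None of this list was called by each product, with 0 called in smoke against 10 higher and 1 lower in e-cigarette.

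Some genes of oxidative phosphorylation rose by small amounts. Of 22 tested nuclear members 9 rose and 0 fell (median 0.23), and of 13 genes of the mitochondrial genome 4 rose and 0 fell (median 0.26). The 9 became 5 without air 6. None of the mitochondrial genome was called without air 1, air 2, air 3, air 6 or e-cigarette 4 alone, and the median stayed between 0.19 and 0.32 in the 18 fits without 1 library. Sdha, a subunit of succinate dehydrogenase, was at 449 to 583 CPM in air (median 543), 612 to 728 CPM in smoke (median 687) and 604 to 799 CPM in e-cigarette (median 727), with no overlap (0.41, SE 0.08, adjusted p = 0.00201). Fast skeletal muscle is a tissue dense in mitochondria. Its summed CPM lay between 26670 and 45560 for air, between 36730 and 51340 for smoke and between 46450 and 60920 for e-cigarette, and 8 of its 22 tested genes rose (Myh2 by 0.68, Casq1 by 0.49), or 4 without air 6. With the thyroid, gland, cartilage and muscle scores as covariates, 0 of the 22 nuclear and 0 of the 13 mitochondrial genome genes were called (medians 0.19 and 0.19). With the thyroid score alone 0 of either were called as well (medians 0.27 and 0.10). The muscle score was not fitted alone, so the part of muscle in the mitochondrial values was not tested. Without air 4, 5 and 6, 3 of the 22 nuclear genes were called, and the muscle list's median was 0.24 against 0.41 with them.

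Mucin genes rose in part. Muc5ac, a gel-forming airway mucin, was at 3.41 to 9.36 CPM in air (median 6.26), 6.30 to 18.6 CPM in smoke (median 12.7) and 9.86 to 22.1 CPM in e-cigarette (median 13.4). Smoke overlapped air and e-cigarette did not (1.09, SE 0.25, adjusted p = 0.00623). It was at 0.36 and no longer called with the gland and cartilage scores as covariates. Muc16, a membrane mucin, rose by 0.97 (SE 0.15), more in e-cigarette (1.29 against 0.65), and the glandular mucin Muc5b was at 1.20 (adjusted p = 0.166). Of 12 mucin genes 3 rose and 1 fell, with none called by each product.

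Epithelial lists differed in their share of calls. No gene of 27 on the squamous differentiation list was called by edgeR, DESeq2 or voom, and 3 had an unadjusted p below 0.05 by edgeR. Krt5 was at 0.19 and Krt13 at 0.57. Of 30 ciliary axoneme genes 2 fell (6.67%, against 8.56% of all genes). They were Rsph9 (-0.45, not called without air 2 or 5) and Cfap52 (-0.38, not called without air 4 or 5). The list's median was -0.52 in smoke and 0.18 in e-cigarette. Foxj1 was at -0.33 with both products (adjusted p = 0.0495), from -0.61 in smoke and -0.05 in e-cigarette, and the products differed by 0.56. It was not called with both products in 12 of the 18 fits without 1 library. Of 20 club and secretory cell genes 2 rose and 7 fell (45% called), such as Sftpb (-2.16) and Bpifa1 (-0.49), and without air 4, 1 rose and 4 fell. Among 14 genes of tight junctions 4 rose and 3 fell (1 without air 1, smoke 3, smoke 4 or e-cigarette 2, and 5 without e-cigarette 6), and Cldn1 (0.82, SE 0.13) was called by each product with Cldn11.

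Immune genes were mostly lower or not called. Of 30 tested cytokine and chemokine genes 2 rose and 6 fell (26.7% called, against 17.3% of all genes), and 1 rose and 3 fell without air 3. None rose without air 5, air 6 or e-cigarette 5. Cxcl16, a transmembrane chemokine, was at 21.2 to 34.3 CPM in air (median 23.98), 15.4 to 19.8 CPM in smoke (median 17.6) and 12.7 to 18.6 CPM in e-cigarette (median 15.0), with no overlap (-0.68, SE 0.11, adjusted p = 4.61e-04), and was the member called by each product. Ccl2 fell by 1.90, Ccl7 by 1.79 and Cxcl10 by 1.16. Without air 3 Ccl2 was at -0.62 (adjusted p = 0.139) and Ccl7 at -0.55 (adjusted p = 0.313), neither called. Il33 rose by 0.79 and was not called in 11 of the 18 fits without 1 library. Of 10 MHC class II genes 5 fell, such as H2-Ab1 (-0.56) and H2-Aa (-0.49), with a median of -0.24 in smoke and -0.66 in e-cigarette. Il1b was at -0.18 and not called. Of 26 interferon-stimulated genes 0 were called by edgeR (3 at an unadjusted p below 0.05), 0 by DESeq2 and 1 by voom. The T cell marker Cd3e was near the detection limit, at 0.109 to 1.02 CPM. The mast cell protease genes Mcpt4 (0.74), Cma1 (0.62) and Tpsb2 (0.56) rose, 3 of 6 on their list, but 1 rose without air 2, 3 or 6, and Tpsb2 was not called in 14 of the 18 fits without 1 library. The macrophage receptor gene Mertk (0.47, SE 0.11) was called by each product.

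Some matrix and cartilage genes rose, and cartilage RNA was low in air 4, 5 and 6. Of 39 fibrillar collagen and matrix genes 12 rose and 2 fell (median 0.49). The 12 became 6 without air 2, 5 without air 3, 6 without air 5 and 4 without air 6, and 6 or 7 without smoke 4, 5 or 6 or e-cigarette 4 or 5. Fbn1, the main fibrillin of elastic fibres, was at 38.2 to 64.1 CPM in air (median 45.8), 66.0 to 121 CPM in smoke (median 78.9) and 49.9 to 104 CPM in e-cigarette (median 80.0), and e-cigarette overlapped air (0.81, SE 0.16, adjusted p = 0.00206). It was the member called by each product. Fmod (1.60), Fbn2 (1.28) and Lox (0.79) rose, and the hyaluronan synthase gene Has1 fell by 1.31 but was at -0.76 and not called without air 3 (adjusted p = 0.0624). Of 21 cartilage genes 6 rose and 1 fell (median 1.08), and Acan, which encodes aggrecan, had 17.6, 6.09 and 7.01 CPM in air 4, 5 and 6 against 33.3 to 255 CPM in the other 15 libraries. The 6 became 12 without air 1, 2 without air 3, 1 without air 4, 5 or 6, and 3 without smoke 5 or e-cigarette 4 or 5. When air 4, 5 and 6 were left out, 2 matrix genes rose and 3 fell (median 0.15), and 1 cartilage gene rose and 1 fell (median 0.44), while Fbn1 was at 0.89 (adjusted p = 0.0124).

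Among the gene lists, those of thyroid and parathyroid genes had the lowest medians of the contrast. Of 15 thyroid follicle genes 8 fell, and of 14 C cell and parathyroid genes 12 fell (53.3% and 85.7%, against 8.56% of all genes). By each product 0 of either list were called, beside 1.04% of all genes. In smoke 0 of either list were called, and in e-cigarette 12 and 13 were called lower and 1 thyroid follicle gene higher. The medians of these lists were -0.30 and -0.74 in smoke and -2.93 and -3.22 in e-cigarette.

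**Figure D4:**
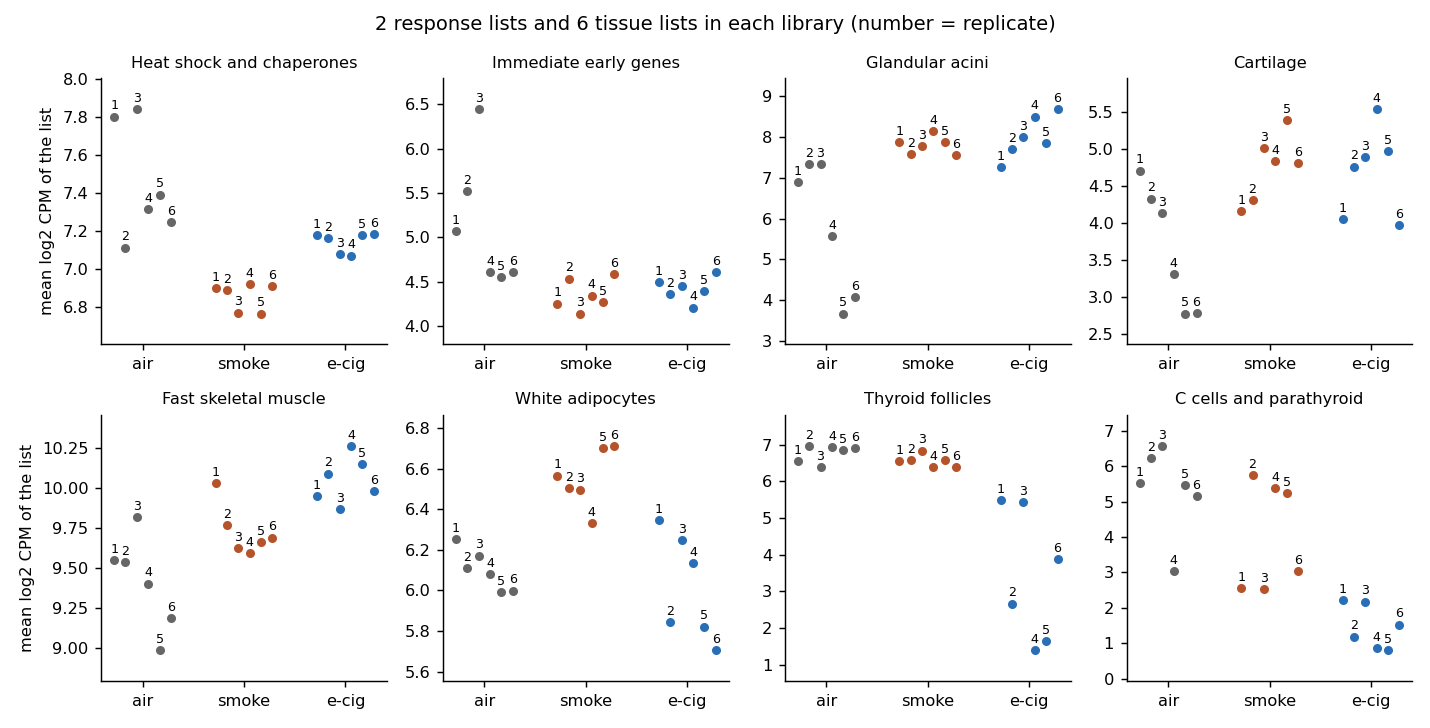
Mean log2 CPM of 2 response lists (immediate early genes, heat shock) and 6 tissue lists in each library, with the replicate number as the symbol. Air 1, 2 and 3 sit above air 4, 5 and 6 for immediate early, gland and cartilage genes, and the e-cigarette libraries sit below air and smoke for thyroid genes, with e-cigarette 1 and 3 nearest to them.

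The products differed by the test in 22 of the 182 common genes, 14 of the higher and 8 of the lower ones. Of these, Cst10, the lipid droplet enzyme gene Pnpla3, Hsp90aa1 and its regulator gene Ahsa2 changed more in smoke, and the rest changed more in e-cigarette. Over all tested genes smoke and e-cigarette differed in 2897 (16.5%). Only 3 genes were called in opposite directions by the products. The monoacylglycerol lipase gene Mgll was at 0.43 in smoke and -0.50 in e-cigarette, the neutrophil surface protein gene Cd177 at -0.85 and 0.59, and the ciliary gene Spag6l at -0.59 and 0.40. These 3 were singled out after their values were seen.

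The contrast of both products was recomputed for the 182 genes with sets of libraries left out, and each gene kept its sign each time. The genes were chosen by their calls in these same libraries, so kept signs and calls follow in part from that choice and are no independent support. Without air 4, 5 and 6 154 were called, without air 1, 2 and 3 175, and without the e-cigarette libraries 2, 4, 5 and 6, which held the least thyroid RNA, 171. In all 3 fits 143 genes were called, 99 higher and 44 lower. With the gland and cartilage scores as covariates 109 of these were called, and with the thyroid score, which was 1.39 to 5.49 in e-cigarette and 6.38 to 6.96 in air and smoke, 57 of those 109 were called as well (44 higher, 13 lower). The 57 included Ahrr, Cst10, Bpifb9a, Atp13a4, Hapln3, Cldn1, Abcb1a and Adh1 among the higher genes, and Dusp2, Nppc, Slc5a3, Mrps6, Dnaja1, Hspa1a, Hsp90aa1, Pkp2, Dnajb9 and Cxcl16 among the lower ones. Pip, Smgc, Areg, Fos, Atf3 and Jun were not among them. The fit with the thyroid, gland, cartilage and muscle scores together was not part of this selection, and in it 70 of the 182 were called (40 higher, 30 lower). Of the genes named among the 57, Ahrr (adjusted p = 0.0765), Cst10 (0.0995), Hapln3 (0.128), Abcb1a (0.0915) and Hsp90aa1 (0.0569) were not called in it. These counts are of calls with both products together. Calls by each product in the same direction were kept by fewer, by 60 of the 182 without air 4, 5 and 6. With air 1, 2 and 3 left out they were kept by 154, and with e-cigarette 1 and 3 only by 42. With the gland and cartilage scores 41 kept them, and with the thyroid score 1.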

How the data were processed

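Total RNA of whole larynges was sequenced as mRNA libraries made with an NEBNext Ultra kit, per the labels' protocols. This kit does not mark strand, so antisense transcripts cannot be told from the genes they overlap. Per the submitters' processing notes, reads were handled with STAR, whose version is not named, and counted with featureCounts 1.5.0-p3 on GRCm38 (mm10). For annotation release and strand setting, nothing is given in the sources used here. The deposited values are whole-number counts, not normalized, for 54532 genes, of which 35370 had a count. Each column name matched 1 sample's title.

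In edgeR 4.0.16 (R 4.3.3), filterByExpr with a minimum count of 10 and a minimum total of 15 left 17537 genes to test (15213 protein coding). TMM factors and 1 robust quasi-likelihood model of the 3 groups, with no covariate, were used. Both products were set against air with a weight of 0.5 each, with Benjamini-Hochberg adjustment over all tested genes. Adjusted p-values without another tool's name are edgeR's. CPM uses TMM-scaled library sizes, and an SE derives from the F statistic. A list score is the mean log2 CPM of its genes. Of 935 entries on 49 gene lists, 928 were found in the table and 854 were tested.

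The members, lists and naming rule were chosen with earlier results of these data known. The rule took protein-coding genes called by each product in the same direction, averaging 1 CPM or more in a group and a sign that no single left-out library changed: the 12 largest increases and 12 largest decreases. Predicted genes (Gm and Rik symbols) and immune receptor segments were left out. The rule added up to 3 called members per list with the smallest p and 20 fixed genes. Other list members, and genes outside the lists, were named after their values were seen. Simulated counts for 17338 genes were used to test the fit of both products against air. Of simulated 1.5-fold changes 48% were recovered, of 2-fold changes 83% and of 4-fold changes 94%, while calls by each product in the same direction recovered 34%, 72% and 94%.

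Within a group, pairs of libraries differed by more than sampling noise (45 pairs, with chi-square divided by its degrees of freedom between 17.0 and 150). Replicate numbers did not pair libraries. Alternatives were DESeq2 1.42.0, voom (limma 3.58.1), other scalings, filters and thresholds, a replicate block, list scores as covariates, a fit of 2 groups, and leaving out libraries singly or in sets.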

Additional observations from a re-analysis of the deposited data

Results flagged for a closer look

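In 168 groups of 6 libraries (56 genes in 3 groups), 12 had a library that stood apart from the other 5 by more than the 95% limit of Dixon's gap test, and chance flags about 1 in 20. Of these, 5 were in air. Air 3 was high for Areg (27.13 CPM) and Errfi1 (397 CPM) and low for Adh1 (36.75 CPM), and air 2 was high for Jun (189.4 CPM) and low for Krt13 (1343 CPM). In smoke, library 3 was low for Hspa1a (11.99 CPM), library 2 high for Fos (17 CPM) and library 1 high for Foxj1 (69.86 CPM). In e-cigarette, library 4 was high for Hapln3 (1.889 CPM) and low for Hspa1b (18.57 CPM), library 3 low for Dnaja1 (120.5 CPM) and library 6 low for Hmox1 (11.55 CPM).

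The change against air differed between the products in 16 of the 56 genes, by the test of smoke against e-cigarette in edgeR. As smoke minus e-cigarette on the log2 scale, the difference was 2.45 for Cst10, 2.00 for Scin, 1.88 for Cyp1a1, 1.58 for Nppc, 1.29 for Scd1, 1.13 for Slc5a3, 0.92 for Acaca, 0.85 for Thrsp, 0.85 for Creld2, 0.58 for Mrps6, 0.53 for Pkp2 and 0.47 for Jun. It was -0.65 for Muc16, -0.56 for Foxj1, -0.55 for Atp13a4 and -0.42 for Cldn1.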

How the results depend on the processing

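Counts of called genes moved with the tool, the libraries and the covariates more than directions did, and the cause was not tested unless named. DESeq2 called 941 genes in smoke and 540 the same way by each product (334 higher, 206 lower). Voom called 1120 and 667 (555 higher, 112 lower). With library sizes only, 2465 fell with both products and 117 with each, the median of all genes was -0.0874 and 29.7% of calls were higher against 50.5%. Without a filter, 1009 rose with both products, 184 were called in smoke and 119 by each (77 higher), over 35370 genes.

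Replicate numbers did not pair libraries: over 18 same-number pairs r was -0.446 to 0.157, 3 were over 0.1 and 0 libraries matched best with their own number. With a replicate block, 39 genes were called in smoke and 29 by each product (19 higher, 10 lower).

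With the thyroid, gland, cartilage and muscle scores, 1395 were called with both products (445 higher, 950 lower), 685 in smoke, 467 in e-cigarette, 0 between products by edgeR (1040 at an unadjusted p below 0.05), and 37 higher and 205 lower by each. With the gland and cartilage scores, 962 rose with both, 624 were called in smoke and 538 by each (406 lower). With the thyroid score, 147 were called with both (77 higher, 70 lower), 14 in e-cigarette, 0 between products (1449 at an unadjusted p below 0.05), and 1 by each, which was higher (0 lower, 313 lower at an unadjusted p below 0.05). Neither DESeq2 nor voom was run with these scores.

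Without air 4, 5 and 6, 795 rose with both products, 451 were called in smoke, 382 by each (294 lower), and 982 did not overlap. Without air 1, 2 and 3, 2198 were called in smoke and 1328 by each (1005 higher, 323 lower). With e-cigarette 1 and 3 only, 1045 were called with both (475 higher, 570 lower), 163 in smoke, 688 in e-cigarette, 147 between products and 54 by each (32 higher, 22 lower). With 12 exposed libraries as 1 group, 1621 were called and 567 were lower. At an adjusted p below 0.01 the counts were 1249 with both (600 higher, 649 lower), 25 in smoke, 2466 in e-cigarette, 1324 between products and 12 by each (9 higher, 3 lower). At 2-fold or more they were 497 (196 higher, 301 lower), 54, 1077, 609 and 28 (21 higher, 7 lower). Adjusting the larger p of both comparisons gave 42 by each (36 higher, 6 lower).

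Leaving out 1 library gave 2352 to 3076 calls with both products (996 to 1463 higher, 1256 to 1637 lower), 50 to 562 in smoke, 3678 to 4425 in e-cigarette, 2113 to 3237 between products, 35 to 356 by each (25 to 255 higher, 10 to 101 lower) and 169 to 322 without overlap. Pooled calls fell most without air 5.

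Of the 24 genes with the largest common changes, none lost its call with both products in any of the 18 fits without 1 library. Those 24 were chosen from the same libraries. Sign turned in named genes only with scores as covariates: with 4 scores Des was at -0.0591, Sftpa1 at 0.0113, Chrne at -0.0108, Cd79b at 0.0739, Galnt6 at -0.0924 and Muc20 at -0.1718, and with gland and cartilage scores Chrne was at -0.0011 and Galnt6 at -0.039. Some of these rest on few reads, such as 29 counts of Ahrr and 15 of Cst10 over the 6 air libraries.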

Other observations

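The 182 genes called the same way by each product included 153 that were on none of the gene lists, some of which are named here. They were picked out after their values were seen, and no test was made of the groups. Of enzymes of branched-chain amino acid breakdown, Ivd rose by 0.47 (148.6 CPM in air, 200 in smoke, 212 in e-cigarette, group means), Mccc1 by 0.44, Aldh6a1 by 0.37 and Echs1 by 0.27. The acetate-activating enzyme gene Acss2 rose by 0.88 (SE 0.11, adjusted p = 1.53e-04), from a mean of 42.0 CPM in air to 82.2 in smoke and 72.9 in e-cigarette, and all exposed libraries were above all air libraries. The fatty acid activating enzyme gene Acsl3 fell by 0.89, from 122 to 71.1 and 61.0 CPM. The glycogen-targeting subunit gene Ppp1r3b rose by 1.05, and the carbonic anhydrase genes Car12 and Car14 by 1.08 and 0.90.

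Of genes for HSP90-associated proteins outside the list, Cacybp fell by 0.58, Ahsa2 by 0.49 and Ptges3 by 0.42. Among single genes, the splicing factor genes Srsf3 fell by 0.35 and Tra2a by 0.40 without overlap between exposed and air libraries, and the ribosome biogenesis genes Heatr1 by 0.54 and Nol8 by 0.38. Among genes of secreted and membrane proteins, Tgfb2 rose by 0.81, the Wnt antagonist gene Sfrp1 by 0.69, the Wnt receptor gene Fzd2 by 0.72, the atypical cadherin gene Fat4 by 1.00 and the fibrillin-binding gene Mfap2 by 1.09.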
